A study of Mus musculus with 9 samples.

Results

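The genes described here carry out antigen presentation on MHC class I: B2m, H2-K1, H2-D1, Tap1, Tap2, Tapbp, Psmb8, Psmb9 and Irf1. They were chosen by name, with earlier results of these data known. A row of the expression table belonged to one of them when its RefSeq accession mapped to that symbol. Of these 9 genes, 7 had a row, among 14771 named genes in all. H2-K1 and Tapbp were not analysed here. RNA came from 9 mouse libraries, 3 for each of AG, BS and OB. The AG libraries are C57BL/6 astroglia whose genotype is given as p53 DN and Nf1 shRNA. The BS libraries are tumour cells of the brainstem and the OB libraries tumour cells of the olfactory bulb, both from a 129;C57BL/6 mix with Foxr2 overexpression and p53 cko. Every group therefore carries an altered p53, and AG differs from both tumour groups in strain, genotype and tissue at once, which cannot be told apart. The labels used here give no age, no driver of these alleles, and no word on whether 3 libraries of a group were separate animals or cultures, so that p-values measure the spread between samples, which may be technical.

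MHC class I molecules show peptides from inside the cell to CD8 T cells and to natural killer cells. A heavy chain such as H2-K1 or H2-D1 pairs with the light chain beta-2 microglobulin, the product of B2m. The proteasome cuts the peptides, the Tap1-Tap2 transporter carries them into the endoplasmic reticulum, and tapasin, from Tapbp, holds empty class I molecules at the transporter. Interferon gamma raises the whole set: Irf1, an interferon-induced transcription factor, binds their promoters, Nlrc5 acts as the class I transactivator, and Psmb8 and Psmb9 replace constitutive subunits to form the immunoproteasome. Neural cells at rest usually express little class I.

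Promoters of the members that carry the results are shown because interferon and NF-kB signals are known to reach class I genes through elements in this stretch. They are RefSeq windows of build GRCm38.p6, another build than the one named for the expression table, and reach from 250 bases before to 50 bases after the annotated start. The B2m window lies at chr2:122147437-122147736 on the plus strand, the H2-D1 window at chr17:35262844-35263143 on the plus strand and the Psmb9 window at chr17:34187281-34187580 on the minus strand. Capitals mark 3 motifs searched on both strands: the IRF core AANNGAAA, the NF-kB consensus and CCAAT.
B2m: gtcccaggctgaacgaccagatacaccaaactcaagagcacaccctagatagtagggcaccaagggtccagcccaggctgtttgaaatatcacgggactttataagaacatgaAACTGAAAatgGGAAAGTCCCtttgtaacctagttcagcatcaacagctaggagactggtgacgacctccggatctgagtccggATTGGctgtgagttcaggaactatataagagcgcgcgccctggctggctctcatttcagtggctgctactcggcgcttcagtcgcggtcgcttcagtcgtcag
H2-D1: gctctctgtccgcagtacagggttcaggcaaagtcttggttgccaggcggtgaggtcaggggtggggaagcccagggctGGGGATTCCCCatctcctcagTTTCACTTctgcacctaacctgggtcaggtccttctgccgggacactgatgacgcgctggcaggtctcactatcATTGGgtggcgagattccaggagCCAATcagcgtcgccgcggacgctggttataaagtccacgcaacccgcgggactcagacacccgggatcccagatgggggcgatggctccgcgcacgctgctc
Psmb9: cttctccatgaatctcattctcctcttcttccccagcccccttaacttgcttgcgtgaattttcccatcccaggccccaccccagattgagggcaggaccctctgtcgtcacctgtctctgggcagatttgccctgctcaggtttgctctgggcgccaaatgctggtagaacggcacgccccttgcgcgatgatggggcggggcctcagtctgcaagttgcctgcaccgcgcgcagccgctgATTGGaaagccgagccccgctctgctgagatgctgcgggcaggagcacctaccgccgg
In B2m the IRF core ran from -137 to -130 and an NF-kB match from -126 to -117, counted with the annotated start as 0. In H2-D1 the NF-kB matches came first, from -171 to -161 where 2 of them overlap, and the IRF core followed from -150 to -143. The Psmb9 window held neither, and its only capitals are a CCAAT match from -8 to -4. Windows were at hand for 8 members, all but Tap2. The IRF core was found in B2m, H2-D1 and H2-K1, which is 3 of 8, against 23.9% of 32851 promoter windows of all genes. The NF-kB consensus was found in 4 of 8, those 3 and Irf1, against 8.46% of all windows, and CCAAT in 7 of 8 against 37.4%. A member counted when any of its windows matched, and H2-K1 has 2, while the shares of all genes are counted per window. The letters TTCNNNGAA, to which STAT dimers bind, were found in Irf1 and Psmb8 and in 8.3% of all windows. Psmb9 and Tap1 point away from each other with 225 bases between their starts, so that their windows share 275 bases. Psmb9, Tap1, Psmb8 and Tap2 are the 4 protein-coding genes of a stretch of 34.3 kb on chromosome 17. A match of letters is a description and no evidence of binding.

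The libraries held 11300273 to 19868282 reads in the table. Values are normalized reads, that is, reads divided by 1 size factor per library, and changes are differences of log2(normalized reads + 1), a scale that understates the change of low genes. Rows of genes with 1 annotated transcript had a median of 442.77 normalized reads, those of genes with 2 transcripts 12.49 and those with 3 or more 6.77. Low values of genes with several transcripts are therefore not read as low expression, and levels were compared between libraries, never between genes. Of the members, Tap1 has 2 annotated transcripts and Irf1 has 3, with 1 row each, while B2m, H2-D1, Tap2, Psmb8 and Psmb9 have 1. Of the genes in the genotype labels, Foxr2 had a single read over the AG libraries and 4505 to 12567 normalized reads in the tumour libraries. Nf1 ran from 1334 to 1588 in AG and from 4184 to 8620 in the tumour libraries, and Trp53 from 23.3 to 34.8 and from 17.7 to 51.4. Correlations of log2 values ran from 0.992 to 0.993 within AG and from 0.841 to 0.959 among tumour libraries, where OB_257 stood apart. It had 2289 normalized reads of Olig1, an oligodendrocyte lineage factor, against 18919 to 39643 in the other 5. Sox10, listed with Olig1, went the other way, with 30528 in OB_257 and 3.35 to 13223 in the other 5. Of 5 oligodendrocyte precursor markers OB_257 was the lowest of the 6 for 4 and the highest for 1. Over all tested genes it was the lowest for 25.7% and the highest for 23.1%. Of the astrocyte markers, the connexin gene Gja1 ran from 4961 to 5396 in AG and from 1.11 to 2879 in the tumour libraries. Sox9 ran from 2328 to 2947 in AG and from 25.4 to 5229 in the tumour libraries, and Slc1a3 from 753 to 855 and from 88.4 to 25665. Gfap had 0.834 to 3.27 in AG and 0 to 91.4 in the tumour libraries, and Aqp4 1.09 to 1.97 and 0 to 1.9. Fibroblast and mural markers summed to at least 88429 in every AG library and to at most 46.3 in a BS and 146 in an OB library. Nearly all of the AG sum came from Col1a1 (35280 to 46039) and Acta2 (52507 to 55942). Col1a2 had 227 to 273 in AG, Dcn 10.9 to 21.7, Lum at most 2.96 and Rgs5 at most 6.67, values that are not compared between genes. Their part in the differences below was not tested.

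B2m, the shared light chain, was the member with the clearest difference. It had 14084 normalized reads in AG_1, 13646 in AG_2 and 13969 in AG_3. BS_287 had 2126, BS_295 had 1982 and BS_296 had 2032. OB_257 had 4704, OB_287 had 1521 and OB_295 had 1545. All 6 tumour libraries thus lay below all AG libraries, and OB_257 lay above the other 5. B2m was lower in BS than in AG by a log2 difference of -2.76 ± 0.39 (SE, n = 3 per group), a 6.79-fold change (limma adjusted p = 0.000889). In OB it was lower by a log2 difference of -2.64 ± 0.39, or 6.24-fold (limma adjusted p = 0.00112). Both calls held in all 21 alternatives of each comparison, with values from -2.79 to -2.43 in BS and from -3.18 to -2.32 in OB. In these bulk libraries fewer cells that express a gene and less RNA per cell cannot be told apart.

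**Figure D1:**
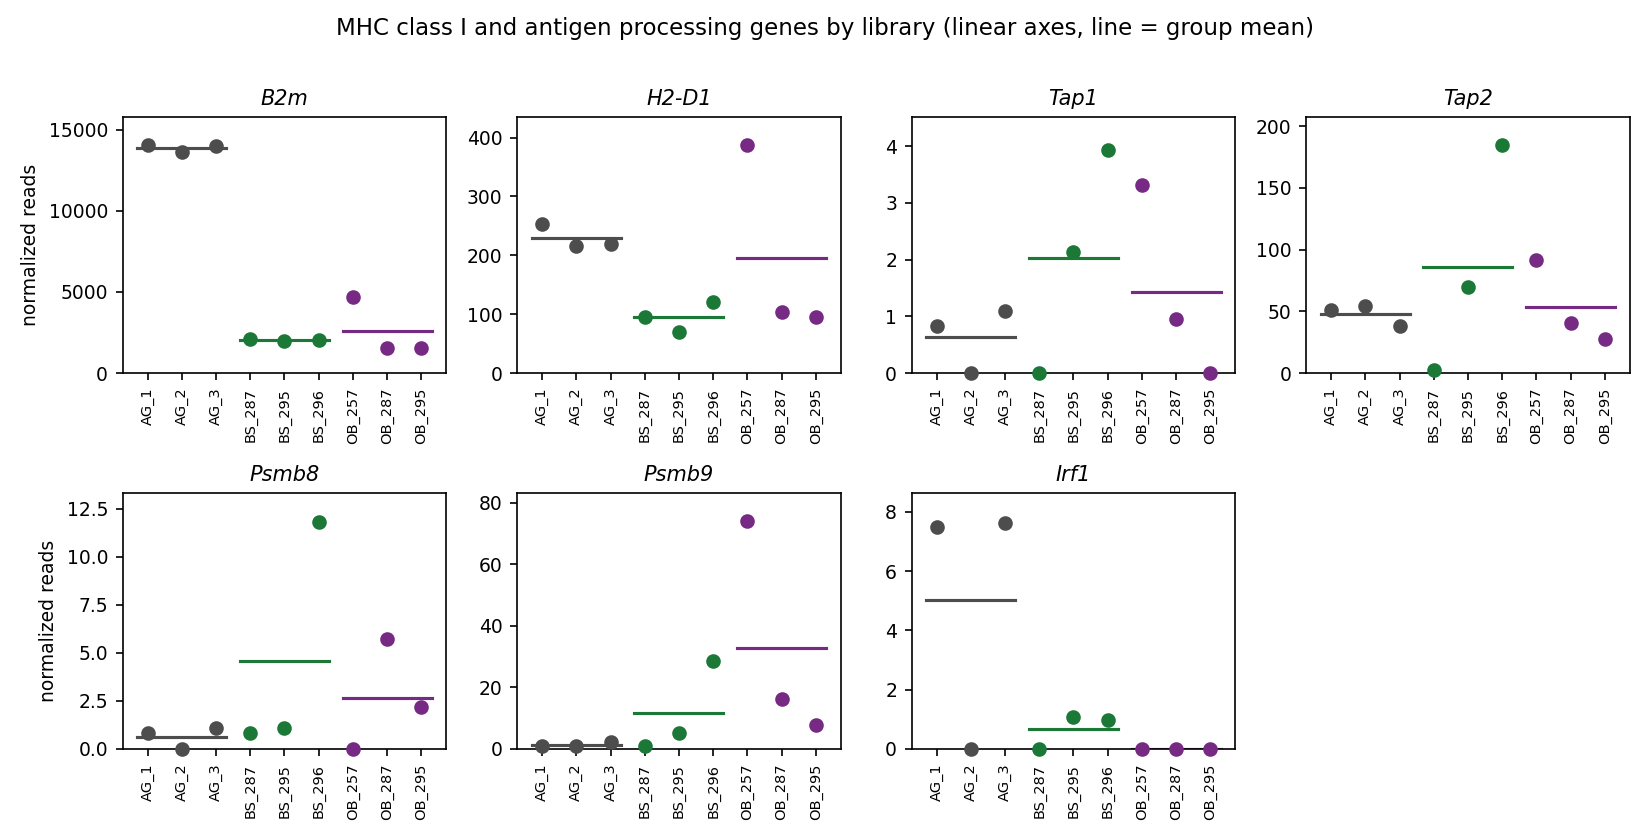
Normalized reads (linear axes) of the 7 analysed genes in each library, with points for AG (grey), BS (green) and OB (purple) and a line at each group mean. For B2m the highest tumour library is at 4704 and the lowest AG library at 13646, OB_257 is the highest library for H2-D1 and Psmb9, and BS_296 is the highest for Tap2 and Psmb8.

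H2-D1, the only classical heavy chain analysed, had 253, 215 and 219 normalized reads in the AG libraries in the order of their numbers. Tumour library values were 95.6 for BS_287, 69.3 for BS_295, 121 for BS_296, 388 for OB_257, 103 for OB_287 and 94.6 for OB_295. All of the tumour libraries except OB_257 lay below every AG library, and OB_257 lay above them all. Neither difference passed the test over all genes: H2-D1 differed from AG by -1.29 ± 0.52 in BS (limma adjusted p = 0.0895) and by -0.55 ± 0.52 in OB (limma adjusted p = 0.45). OB_257 decided these calls. Without it the log2 difference was -1.29 in BS (limma adjusted p = 0.00722) and -1.20 in OB (limma adjusted p = 0.0177), since the groups share 1 estimate of the spread. Heavy chain genes are near-identical copies of each other and vary between strains, and how reads that fit several of them were counted is not given in the sources used here, so that H2-D1 values are uncertain.

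Tap2, a subunit of the peptide transporter, had 50.9, 54.2 and 38.1 normalized reads in the AG libraries. BS_287 had 2.52, BS_295 had 69.3 and BS_296 had 185. OB_257 had 91.7, OB_287 had 40.9 and OB_295 had 27.2. The tumour libraries lay on both sides of AG, and BS_287, with 3 reads, stood far below the other 5. The SD of log2 values was 2.98 in BS, against a median of 0.47 over all tested genes there. Tap2 did not pass the test in BS (log2 difference -0.43, interval -3.32 to 2.47, limma adjusted p = 0.82) or in OB (log2 difference -0.01, interval -2.90 to 2.88, limma adjusted p = 0.996), and these 95% intervals are wide enough to hold large changes either way. Tap1, the other subunit, had 12 reads in all 9 libraries and at most 3.94 normalized reads in any, from 1 of its 2 annotated transcripts, and was not tested.

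Psmb9 encodes the immunoproteasome subunit beta-1i. It had 1 read each in AG_1 and AG_2 and 2 in AG_3, that is, 0.834, 0.986 and 2.18 normalized reads. Tumour values were 0.839 for BS_287, 5.33 for BS_295, 28.6 for BS_296, 74.1 for OB_257, 16.2 for OB_287 and 7.61 for OB_295. Every OB library and 2 of the BS libraries, BS_295 and BS_296, lay above AG, while BS_287 did not. The log2 difference was 3.30 ± 1.07 in OB (limma adjusted p = 0.043) and 1.63 ± 1.07 in BS (limma adjusted p = 0.272). Psmb9 entered the test only through its tumour libraries, since none of the AG libraries reached the filter of 10 normalized reads, and its call is given as a description. The call in OB ended without AG_1, AG_2, AG_3, BS_295, OB_257 or OB_287, each left out on its own, with adjusted p in limma from 0.0609 to 0.119. With BS_287 and OB_257 both left out, the difference in BS was 2.60 (limma adjusted p = 0.0236).

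Psmb8, the beta-5i subunit, stayed below the filter. It had 2 reads in AG, 14 in BS, of which 12 were in BS_296, and 8 in OB, of which 6 were in OB_287 and 0 in OB_257. The library with the most Psmb9 therefore had no Psmb8 read, against a floor of 3 reads, or 3.32 normalized reads, in OB_257. Irf1, read from 1 of its 3 annotated transcripts, had 16 reads in AG (9 in AG_1, 0 in AG_2 and 7 in AG_3), 2 in BS and 0 in OB. At this depth no difference of Tap1, Psmb8 or Irf1 was tested.

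Of the 4 tested members, limma called 1 lower in BS (B2m), and 1 lower (B2m) and 1 higher (Psmb9) in OB. Psmb9 met the filter only through tumour libraries, as 1048 of all tested genes did, so its direction carries no weight in any count here. Over all 10576 tested genes it called 35.1% in BS against AG, 19.5% lower and 15.6% higher, and 34.9% in OB against AG, 19% lower and 16% higher. The median log2 difference of the 4 was -0.86 in BS and -0.28 in OB, against -0.03 and -0.01 over all tested genes. edgeR and DESeq2 on recovered reads called 1 member each in BS (34.8% and 40.4% of all genes) and 2 each in OB (35.2% and 40.5% of all genes). Groups did not overlap for B2m and H2-D1 in BS, both lower, and for B2m (lower) and Psmb9 (higher) in OB. Among all tested genes, groups did not overlap with the tumour lower in 31.8% for BS and 30.8% for OB, and with the tumour higher in 26.7% and 27.5%. Both comparisons share the AG libraries, so that their likeness is no independent result.

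**Figure D2:**
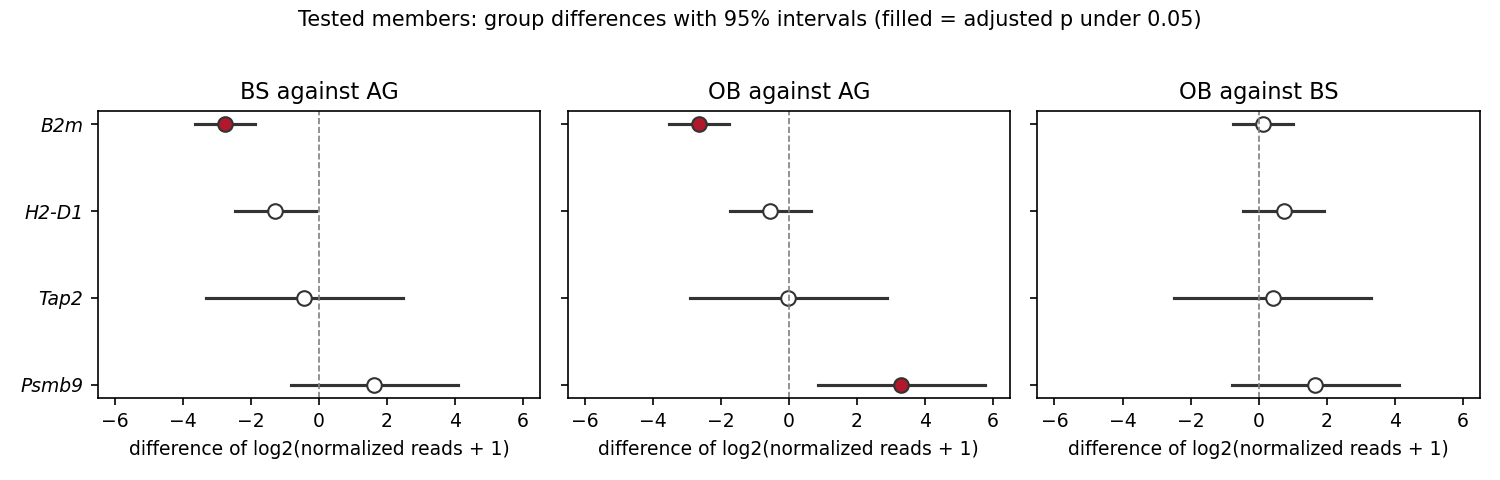
Differences of log2(normalized reads + 1) for the 4 tested genes in the 3 comparisons, with 95% intervals of the limma fit (n = 3 per group), where filled points passed an adjusted p of 0.05. B2m passed in both comparisons with AG, Psmb9 passed in OB against AG, and no gene passed between the tumour groups. Psmb9 met the filter only through tumour libraries.

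Between the tumour sites none of the 4 tested members passed. OB minus BS was 0.12 ± 0.39 for B2m (interval -0.76 to 1.01, limma adjusted p = 0.949) and 0.74 ± 0.52 for H2-D1 (interval -0.46 to 1.93, limma adjusted p = 0.675). It was 0.42 ± 1.27 for Tap2 (limma adjusted p = 0.945) and 1.67 ± 1.07 for Psmb9 (limma adjusted p = 0.643). Over all genes 0% were called here by limma, with 1019 genes at an unadjusted p under 0.05, 0 genes called by edgeR and 233, or 2.2%, by DESeq2, none of them a member. None of the members was at an unadjusted p under 0.05 between the sites. The groups overlapped for each of the 4, while OB lay wholly above BS for 5.36% and wholly below for 4.63% of all tested genes.

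Within the tumour groups single libraries stood apart. OB_257 was the highest of the 6 tumour libraries for B2m, H2-D1 and Psmb9, 3 of 4 tested members, while it was the highest for 23.1% of all tested genes. Psmb9 met the filter in only 3 libraries, OB_257 among them, so its place in this count carries no weight. The value of OB_257 was 2.37 times the median of the other 5 for B2m, 4.06 times for H2-D1 and 9.73 times for Psmb9. Nlrc5, the class I transactivator, followed with 178 normalized reads in OB_257 against 4.35 to 19.3 in the other 5 and 79.8 to 91.7 in AG. H2-T23, which encodes the nonclassical class I molecule Qa-1, had 166 in OB_257 and 7.47 to 71.3 in the others. Ifi35 and Bst2, both induced by interferon, had 649 and 529 there, above the AG range of 461 to 573 for Ifi35 and within that of 429 to 544 for Bst2, while the other 5 had 19.2 to 98.5 of Ifi35 and 19.2 to 226 of Bst2. Other genes went the other way: OB_257 had 0 of Trim25, Gbp2 and Irgm1 and 1.11 of H2-Q4, the lowest of the 6. BS_287 also had 0 of Trim25 and Irgm1, and BS_295 had 0 of Gbp2, so that only H2-Q4 was lowest in OB_257 alone. It was the highest for 3 of 17 type I interferon genes, or 17.6%, under its 23.1% over all tested genes. Nlrc5, Ifi35, Bst2 and these 4 genes were singled out after their values were seen, and this is 1 library.

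BS_296 had another pattern. It was the highest of the 6 for Tap2, and also for 10 of 17 tested genes of a type I interferon response list, against 14.8% of all tested genes. Isg15, a ubiquitin-like interferon-induced protein, had 50.2 normalized reads in BS_296 and 0 to 13.3 in the other tumour libraries. Cxcl10, a T cell chemokine, had 164 there and 9.78 to 39 in the others, and Usp18, a brake on interferon signalling, 33.5 against 0.839 to 15.2. BS_296 had only 7.88 of Nlrc5 and 2032 of B2m. BS_287 lay at the other end and was the lowest of the 6 for Tap2 and Psmb9 and for 9 of 17 type I interferon genes, against 22.2% of all tested genes. Isg15, Cxcl10 and Usp18 were also chosen after their values were seen. Microglia and macrophage markers with a row (5 of 15 listed) summed to between 71.7 and 79.8 normalized reads in AG, between 44.8 and 117 in BS and between 84.8 and 104 in OB, and the T cell marker Cd4 (1 of 10 T and NK cell markers listed) had at most 3.35 in any library. The other markers of both lists, Ptprc, Aif1 and Cd3e among them, were not analysed here, and the part of immune cells in these patterns was not tested beyond these values.

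**Figure D3:**
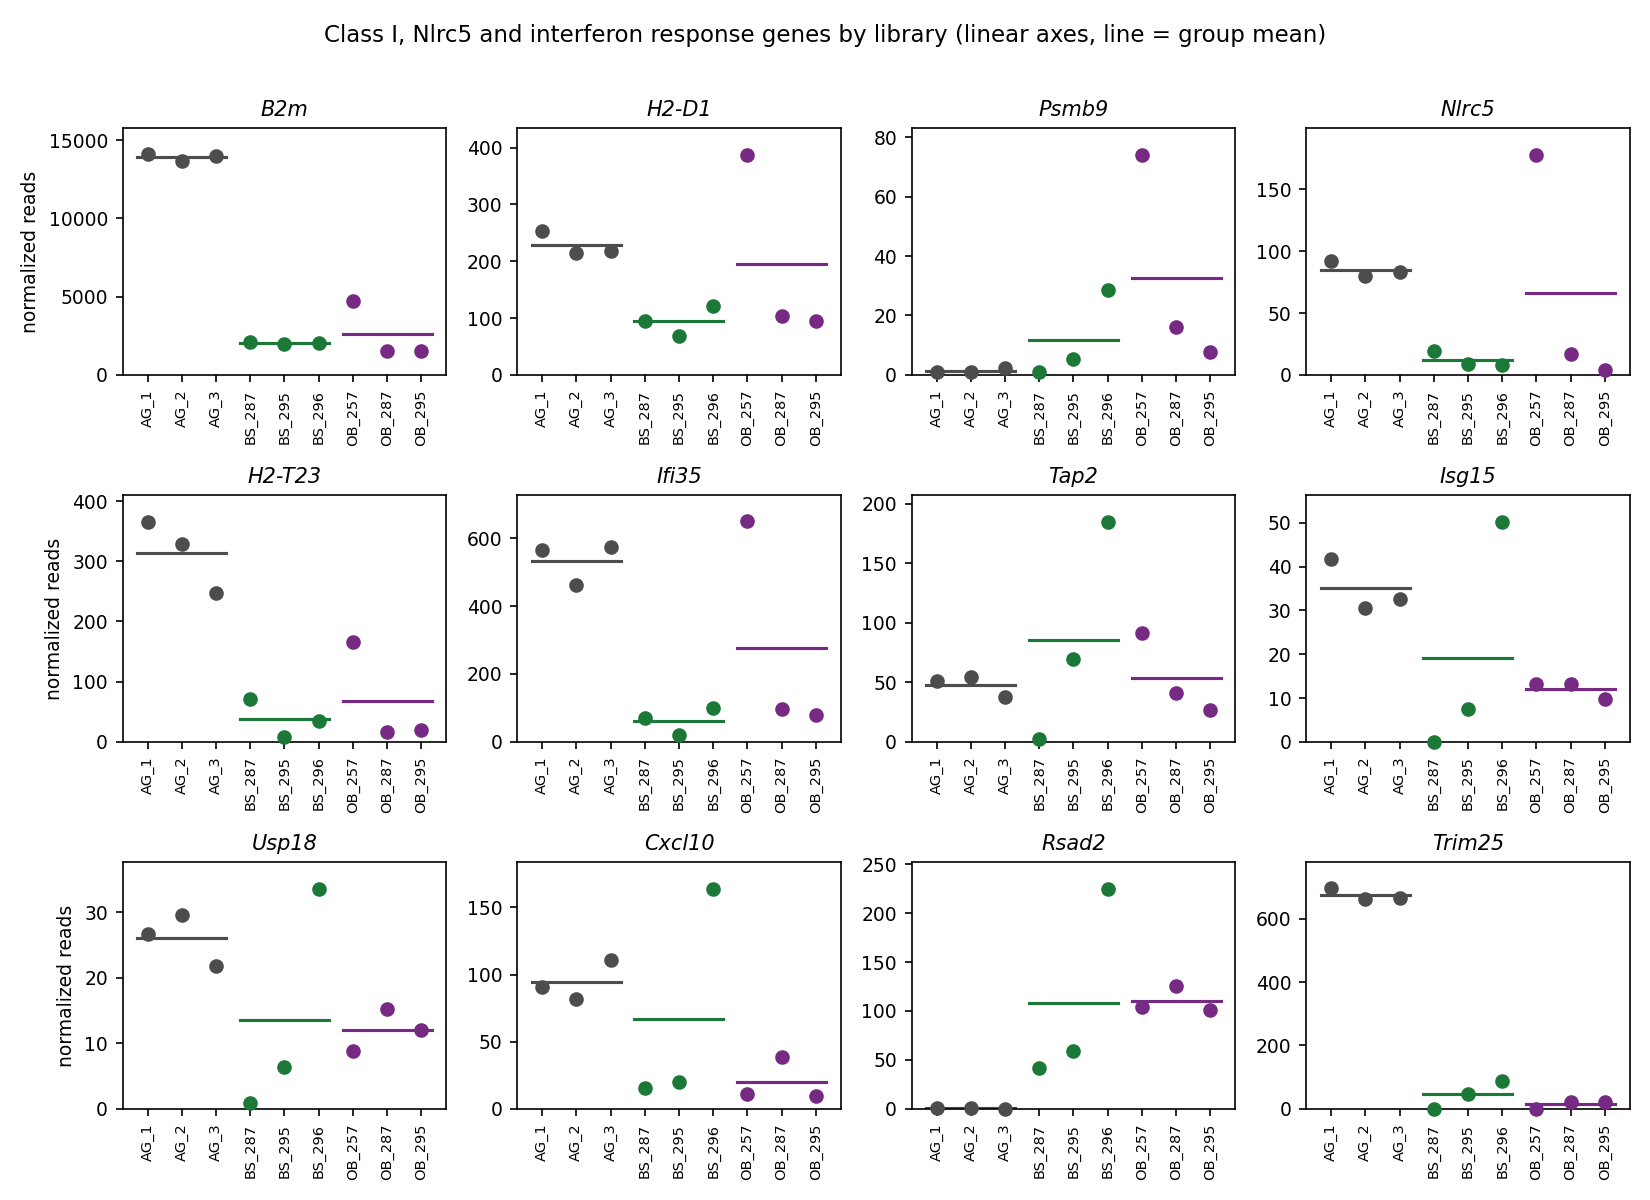
Normalized reads (linear axes) of 12 class I and interferon response genes in each library, points for AG (grey), BS (green) and OB (purple) and lines at group means. OB_257 is the highest tumour library for B2m, H2-D1, Psmb9, Nlrc5, H2-T23 and Ifi35, and BS_296 for Tap2, Isg15, Usp18, Cxcl10, Rsad2 and Trim25.

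Most tested genes of the steps around the transporter were lower in both tumour groups, while Tap2 of the transporter itself did not pass. Of 6 tested genes for peptide trimming, loading and chaperones, 5 fell and 0 rose in BS and in OB, with medians of -1.27 and -1.10 on the log2 scale. Over all tested genes 19.5% were called lower in BS and 19% in OB. Erap1, the aminopeptidase that trims peptides in the endoplasmic reticulum, fell from 2166 ± 143 (SD) in AG to 254.4 ± 115 in BS and 231.3 ± 171 in OB (limma adjusted p = 0.00571 and 0.003). Tapbpl, a tapasin-related peptide editor, fell from 345.6 ± 26.6 to 50.19 ± 18.8 and 40.12 ± 23.5 (limma adjusted p = 0.00258 and 0.00118). The chaperones Calr and Pdia3 fell by smaller steps, with log2 differences of -1.05 and -1.50 in BS and of -1.13 and -1.07 in OB. Sec61a1, also called, had -0.79 in BS and -0.71 in OB. Hspa5 did not pass (limma adjusted p = 0.175 in BS and 0.187 in OB). Calr did not pass in either comparison, nor Pdia3 in OB, after quantile normalization. The count in OB was 3 without AG_1, AG_2 or AG_3, and it was 2 after quantile normalization. In BS the count was 3 after quantile normalization.

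Other heavy chains and class I-like genes were divided. Of 6 tested, 2 fell and 1 rose in both comparisons. Over all tested genes 19.5% were called lower and 15.6% higher in BS, and 19% and 16% in OB. H2-M3, a chain that presents formylated peptides, is 1 of the 2, with means of 67.45 ± 3.73 for AG, 2.38 ± 2.09 for BS and 3.125 ± 3.27 for OB. It met the filter only through the AG libraries, since no tumour library reached 10 normalized reads, and so had to differ. H2-T23 fell from 314.2 ± 60.1 to 37.75 ± 32 and 67.54 ± 85.1 (limma adjusted p = 0.0257 and 0.0464), but edgeR called it in neither comparison, and both calls ended without AG_1, AG_2 or AG_3. The call of H2-T23 also ended without BS_295 or BS_296 in BS, and without BS_296, OB_287 or OB_295 in OB. In OB it ended in 11 of 21 alternatives, with DESeq2, upper-quartile rescaling, quantile normalization and no trend in the variance among them. Cd1d1, which presents lipids to NKT cells and lies outside the MHC, rose from 103.7 ± 8.83 to 802.4 ± 383 in BS and 886.9 ± 477 in OB (limma adjusted p = 0.00158 and 0.0012), and every tumour library lay above every AG library. H2-Q4 had 427 normalized reads in BS_287 and 1.11 to 35.9 in the other tumour libraries, and it did not pass (limma adjusted p = 0.241 in BS).

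Proteasome genes outside the members went both ways or did not pass the test. Of 3 tested immunoproteasome partners, which are Psmb10 (beta-2i), the activator subunit Psme1 and the assembly factor Pomp, 0 passed in either comparison, in limma or in any of the 21 alternatives. Of 13 constitutive 20S genes 2 rose and 3 fell in both, a share near the 35.1% and 34.9% called over all tested genes in BS and OB. Psmb6, the subunit that Psmb9 replaces, rose from 4351 ± 270 to 6435 ± 1380 in BS and 6939 ± 715 in OB (limma adjusted p = 0.0458 and 0.0204), and Psmb5, replaced by Psmb8, rose from 519.4 ± 53.8 to 918.4 ± 244 and 933.6 ± 138 (limma adjusted p = 0.0307 and 0.0239). Psma1, Psma2 and Psma4, of the outer rings, fell, with log2 differences from -0.67 to -0.56. Psma4 lost its call in 9 of 21 alternatives in BS and 12 of 21 in OB, and Psma1 lost both calls with upper-quartile rescaling and with quantile normalization. Psma2 lost both with quantile normalization, and in OB also with upper-quartile rescaling and without AG_1. Psmb6 lost its call in BS in 11 of 21 alternatives, and the Psmb5 call in both comparisons and the Psmb6 call in OB ended without AG_1, AG_2 or AG_3. The count of 5 fell to between 1 and 5 when 1 library was left out in OB and to between 2 and 5 in BS. Normalized reads of Psmb9 per 1000 of Psmb6 ran from 0.179 to 0.525 in AG and were 0.131 in BS_287, 1.05 in BS_295, 3.65 in BS_296, 9.94 in OB_257, 2.23 in OB_287 and 1.24 in OB_295. The same quotient of Psmb10 and Psmb7 ran from 76.2 to 101 in AG and from 60.8 to 124 in the tumour libraries. That of Psmb8 and Psmb5 ran from 0 to 2.12 in AG. It was 1.26 in BS_287, 1.13 in BS_295, 10.3 in BS_296, 0 in OB_257, 5.29 in OB_287 and 2.7 in OB_295. The Psmb9 quotients of AG and BS_287 rest on 1 or 2 reads each, and those of Psmb8 on 0 to 12 reads. Only changes of such a quotient between libraries can be read, since the genes differ in length.

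Some interferon receptor and response genes were lower in the tumour groups. Of 8 tested receptor and JAK-STAT genes, 4 fell in BS and 5 in OB, and 0 rose. Over all tested genes, the shares for this list and the regulators below were 19.5% lower and 15.6% higher in BS, and 19% and 16% in OB. Ifngr1 and Ifngr2, the chains of the interferon gamma receptor, fell from 2315 ± 22.4 and 3174 ± 132 in AG to 727.4 ± 69 and 740.4 ± 221 in BS and to 773.1 ± 261 and 762.2 ± 160 in OB, with limma adjusted p from 0.000403 to 0.000886. Jak1, the kinase of both receptor types, fell with log2 differences of -1.88 in BS and -2.10 in OB (limma adjusted p = 0.000387 and 0.000216), and Socs3, a feedback inhibitor, with -2.99 and -2.66 (limma adjusted p = 0.000236 and 0.000449). Ifnar1, of the type I receptor, fell in OB only by the test (log2 difference -0.63, limma adjusted p = 0.0294), and the difference between OB and BS was not past the test for any gene. Of 6 tested class I transcription regulators, 3 fell in both groups (Nfkb1, Rela and Atf1) and Rfx5 rose in BS, a gene that met the filter only through tumour libraries. Nfkb1, an NF-kB subunit precursor, fell from 4827 ± 149 to 1087 ± 177 in BS and 1344 ± 500 in OB (limma adjusted p = 0.000343 and 0.000697). Rela, an NF-kB subunit, and Atf1, a CREB family factor, had log2 differences from -0.99 to -0.73, and both calls ended without AG_1, AG_2 or AG_3. Atf1 lost its call in 9 of 21 alternatives in BS and 11 of 21 in OB, edgeR and quantile normalization among them. Rela lost its call in 6 of 21 in BS and 4 of 21 in OB. The counts of regulators called were 1 in each comparison without AG_1, AG_2 or AG_3, and 2 in BS without BS_295, with upper-quartile rescaling or with quantile normalization.

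Of 8 tested interferon gamma response genes 6 were called lower and 0 higher in each comparison, but 5 of the 8 (Irgm1, Irgm2, Gbp2, Gbp5 and Gbp6) met the filter only through the AG libraries, so that the direction of this count carries no weight. Gbp2, a guanylate-binding protein, averaged 365.6 ± 28 for AG, 10.17 ± 12.9 for BS and 16.04 ± 24.1 for OB. The immunity-related GTPases Irgm1 and Irgm2 had 91.83 ± 22.3 and 107.2 ± 3.22 in AG, 7.606 ± 7.47 and 3.694 ± 3.96 in BS, and 2.129 ± 2.90 and 7.581 ± 4.75 in OB. Igtp, of the same family, met the filter on both sides and fell with log2 differences of -3.38 in BS and -3.61 in OB (limma adjusted p = 0.0156 and 0.0115). Cd274, the checkpoint ligand, did not pass (limma adjusted p = 0.0514 in BS and 0.336 in OB). Irgm1 and Igtp lost their calls in BS without AG_1 or AG_2. The count in BS was 3 without AG_1. Of 3 tested other IRF factors 0 passed in either comparison, and without OB_257 1 passed in each. Of 17 tested type I interferon genes 8 were called lower and 1 higher in BS, and 10 lower and 1 higher in OB. The shares of all tested genes, for this list and the gamma list, were 19.5% lower and 15.6% higher in BS, and 19% and 16% in OB. Ifit3 and Samhd1 met the filter only through the AG libraries, and Rsad2 only through the tumour libraries. Ifit3, an interferon-induced RNA-response protein, averaged 393 ± 11.3 for AG, 5.602 ± 2.08 for BS and 4.656 ± 2.46 for OB. The ubiquitin ligase Trim25 went from 674.4 ± 18.4 to 45.56 ± 44.4 and 14.54 ± 12.6 (limma adjusted p = 0.0439 and 0.0223), and the call ended in OB without OB_257 or any 1 of the AG libraries and in BS in 10 of 21 alternatives. Rtp4, called in OB, and Parp9, called in both, lost the OB call in 9 of 21 alternatives, each OB and AG library left out among them. Rsad2, which encodes the antiviral enzyme viperin, was the gene called higher: it had at most 0.986 normalized reads in AG, 41.9 in BS_287, 58.7 in BS_295, 225 in BS_296, and 101 to 125 in OB. The number called in OB, 11, was 4 without AG_1, AG_2 or AG_3, 7 without OB_257, 5 without OB_287, 5 without OB_295 and 7 with upper-quartile rescaling. In BS the number called, 9, was 4 without AG_1 or AG_3. With BS_287 and OB_257 both left out it was 12 in each comparison.

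**Figure D4:**
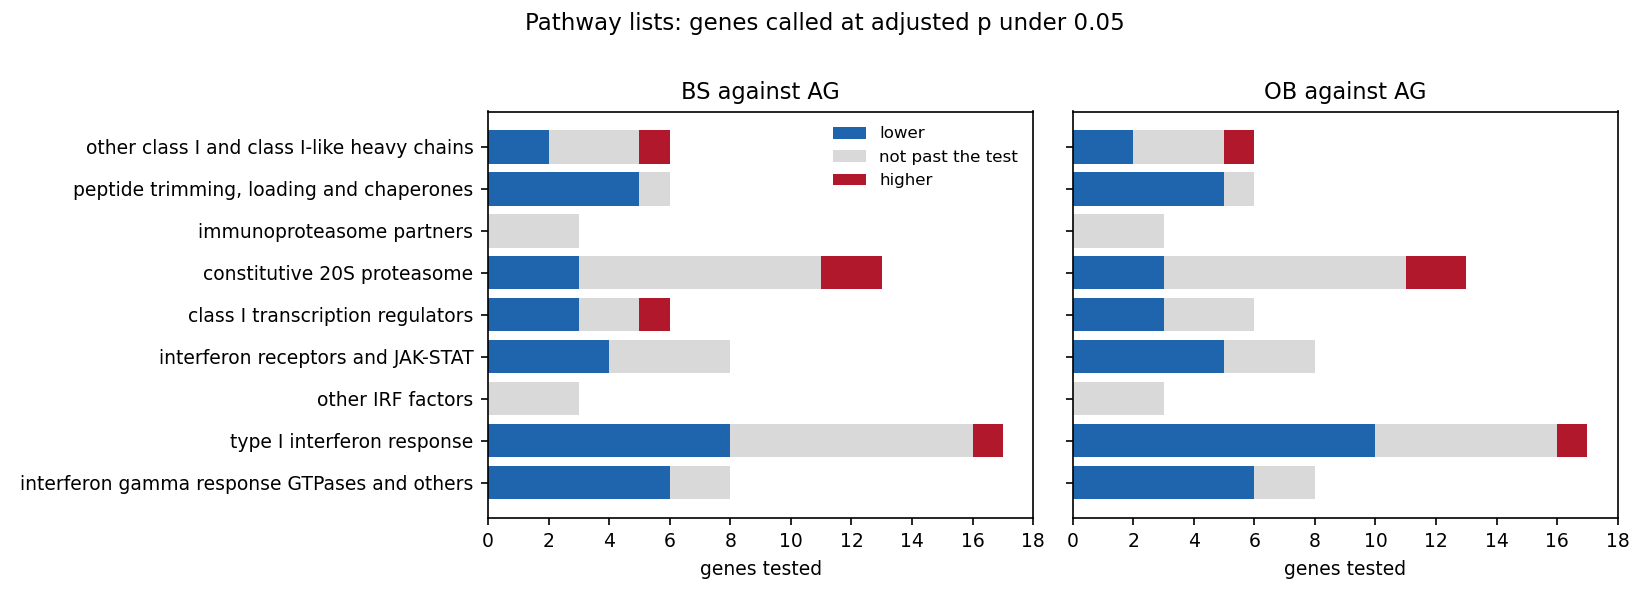
Number of tested genes of each pathway list that passed an adjusted p of 0.05 (limma, n = 3 per group) as lower (blue) or higher (red), or did not pass (grey), in BS and OB against AG. Loading genes show 5 of 6 lower in both panels, beside 19.5% and 19% of all tested genes lower in BS and OB.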

How the data were processed

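Tools listed in the submitters' processing notes, without roles, are Subread with featureCounts (1.6.2), HISAT2 (2.1.0), DESeq2 (1.20.0) and bcl2fastq (1.8.4), and the build is mm9. The authors deposited signal values: reads per RefSeq transcript divided by a size factor per library. Undoing the factor gave whole reads within 0.05 reads for 100.0% of values. Of 16260 rows, 16202 were named from RefSeq and 41 from GENCODE, and 17 were left out. Rows were summed per symbol.

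limma 3.58.1 in R 4.3.3 was fitted to log2(value + 1) of all 9 libraries, with a mean per group and a variance trend, for genes with 10 normalized reads in at least 3 libraries (10576). Tests were two-sided with Benjamini-Hochberg adjustment over all genes tested, called under 0.05, and were tested on simulated data. Alternatives included DESeq2 1.42.0 and edgeR's quasi-likelihood test (4.0.16), both run on the whole reads. edgeR and DESeq2 called 3724 and 4281 genes in OB against AG. Members and lists were chosen with earlier results of these data known. Named genes were every member and up to 4 called genes per list, by size of change, whose higher group had a mean of 50 normalized reads or more, plus genes said to be chosen later. Not every gene so picked is given. Floors cover counting error only. Gene names, promoters and gene order come from GRCm38.p6 tables, not mm9.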

Additional observations from a re-analysis of the deposited data

How the results depend on the processing

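Of the 4 tested members B2m kept its direction and its call against AG in every alternative run. Psmb9 in OB against AG lost its call with a pseudocount of 5 (2.13, limma adjusted p = 0.0594) and with quantile normalization (2.92, limma adjusted p = 0.065), and a filter of 50 normalized reads removed it from the test, so that 1 member was called in each of these 3 alternatives in place of 2. H2-D1 in BS against AG passed when only the compared groups were fitted (-1.29, limma adjusted p = 0.00955), which made 2 members called in place of 1, and 3 were called without BS_287 and OB_257 together. Psmb9, which met the filter only through tumour libraries, was among these 3. Leaving out 1 library gave 1 to 2 members called in BS against AG, 1 to 2 in OB against AG and 0 to 0 in OB against BS. Over all genes it gave 2427 to 4353 called in BS against AG, 2502 to 4164 in OB against AG and 0 to 96 in OB against BS. In OB against BS the number of genes called, 0, became 233 with DESeq2, 2 with no trend in the variance, 3 after quantile normalization, 4 for a pseudocount of 0.5, 6 for a pseudocount of 5 and 69 without BS_287 and OB_257 together, and none of these was a member. Upper-quartile rescaling moved the median of all genes to 0.18 in both comparisons with AG and the share of calls that were higher from 44.5% to 56.1% in BS and from 45.7% to 56.3% in OB. BS_287 and OB_287 share a number in their titles, as do BS_295 and OB_295, and the replicate block on these numbers called 0 genes and 0 members. Same-numbered libraries deviated from their group means with correlations of 0.07 and 0.30, and the labels do not say what the numbers mark. Of 2560 values of the other named genes under alternatives, 158 lost and 12 gained a call, and 0 called values changed sign. The 2560 include OB against BS, where limma called no gene and no call could be lost, so the share lost among calls against AG is larger.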

Other observations

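MHC class II genes were near the limit of detection. The 5 of 9 listed genes with a row summed to between 4.93 and 7.62 normalized reads in AG, between 10.7 and 15.8 in BS and between 14.3 and 16.3 in OB, and the highest single value was 10.9. None reached the filter for the test.

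Over the 6 tumour libraries, the mean of the 4 tested class I and antigen processing genes, each centred on its own mean of log2 values, was 1.64 in OB_257, 0.84 in BS_296, -0.06 in OB_287, -0.28 in BS_295, -0.48 in OB_295 and -1.66 in BS_287. The low mean of BS_287 came from Tap2 and Psmb9, with 3 reads and 1 read there. Its B2m, 2126 normalized reads, lay within the 1521 to 4704 of the other 5, and its H2-D1, 95.6, within 69.3 to 388. The 8 genes most like the mean of the 4 genes among 7472 candidates were Aurkaip1, Cenps, Pex14, Ssna1, Ndufb8, Nat10, Otub1 and Esrra, with Pearson correlations from 0.958 to 0.99 over 6 libraries. With so many candidates and so few libraries this ranking is a description only. Aurkaip1 had 946 normalized reads in BS_287 and 2143 in OB_257, a smaller range than that of Psmb9.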
